A study of Mus musculus with 8 samples.

Results

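The genes described here encode the protein-folding machinery of the cell: heat shock proteins and their J-domain partners, the cytosolic CCT chaperonin, the chaperones, disulfide isomerases and degradation factors of the endoplasmic reticulum (ER), the sensors of the unfolded protein response (UPR), the FKBP prolyl isomerases and the BAG cofactors. They were chosen by name, as every protein-coding gene of the deposited table whose symbol matches one of a set of family names, a rule that uses no measured value. The rule found 84 genes of the 8278 in the table, 7976 of which are protein-coding. In GENCODE M21, 131 protein-coding symbols match the same rule, and 48 of them, among them *Hspa1a*, *Dnajb1*, *Bag3*, *Manf*, *Pdia6*, *Edem1* and *Syvn1*, are not in the table and were not analysed here. These counts rest on the symbols of GENCODE M21 and do not leave exactly the 84 members, a gap that was not traced. Because the table lists only genes that the authors had already called different between the groups, a member of a family that did not differ cannot be seen in it, and each count below describes listed genes only.

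RNA was measured by bulk RNA-Seq in cultured mouse cardiac endothelial cells (MCECs), an immortalised line. *Hdac3* knockout (KO) MCECs had been transduced with a lentivirus that carries Cas9 and a guide RNA against *Hdac3*, the gene of histone deacetylase 3, and empty vector (EV) MCECs with the lentivirus without a guide. Both groups therefore carry the viral vector, and each group holds 4 libraries, numbered 1 to 4. Nothing in the labels says that the libraries came from separate cultures or separate transductions, so the p-values measure the spread between these libraries, which may be technical. The comparison asks which folding genes differ in level when *Hdac3* is targeted.

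The libraries held between 15775327 and 22255684 reads. *Hdac3* itself averaged 2058 ± 84.9 normalized counts in the EV libraries and 1513 ± 40.8 in the *Hdac3* KO libraries (mean ± SD, n = 4), so its transcript stood at 73.5% of the EV level, and a guide that cuts the coding sequence can leave the transcript in place. The paper reports loss of HDAC3 protein in *Hdac3* KO MCECs by western blot, and slower growth of these cells than of EV MCECs. The part of slower growth in the changes below was not tested. Of 15 endothelial marker genes 7 are listed, with a summed level of 27.7 to 30.2 FPKM (fragments scaled to gene length and library total) in EV and 22.1 to 23.1 FPKM in *Hdac3* KO libraries. Of the defining endothelial markers, *Cdh5* is not in the table and *Pecam1* was near 0, with a mean of 0.518 normalized counts in EV and 3.99 in *Hdac3* KO libraries. *Pecam1* was called higher, and the 6 other listed endothelial markers lower, with log2 fold changes from -1.41 (*Tek*) to -0.16 (*Eng*). The call of *Pecam1* was lost with DESeq2, with a low-count filter and with adjustment as if 30000 genes had been tested. With that adjustment 4 endothelial markers were called lower. The 3 listed fibroblast and mesenchymal markers of 7 summed to 717 to 738 FPKM in EV and 534 to 550 FPKM in *Hdac3* KO libraries, and the 3 listed smooth muscle and pericyte markers of 7 to 29.5 to 35.6 FPKM and 5.74 to 7.16 FPKM. Of the mesenchymal markers *Dcn* and *Pdgfra* were called lower (log2 fold changes -1.21 and -1.42) and *Col1a1* higher (0.23). One leukocyte marker of 6, *Cd68*, is listed, at 5.36 to 5.89 FPKM in EV and 11.1 to 12.5 FPKM in *Hdac3* KO libraries, and no cardiomyocyte marker of 7. The part of these markers in the changes below was not tested. In bulk RNA, fewer cells of a type and less RNA per cell cannot be told apart.

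Newly made proteins are bound by Hsp70 with a J-domain protein that delivers the client and a nucleotide exchange factor that releases it, and some then pass to Hsp90 or to the closed chamber of CCT, which folds actin and tubulin. Heat shock factor 1 (HSF1) raises the genes of this cytosolic set by binding inverted GAA repeats, the heat shock element. In the ER, the Hsp70 BiP (*Hspa5*), the Hsp90 Grp94 (*Hsp90b1*) and the lectins calnexin and calreticulin fold secreted proteins, and proteins that fail are sent back to the cytosol for degradation. When unfolded proteins build up, IRE1 (*Ern1*) splices *Xbp1* messenger RNA, ATF6 is cut free from the membrane, and PERK (*Eif2ak3*) slows translation and raises ATF4. Endothelial cells fold matrix proteins and receptors for the cell surface by this route.

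The response elements themselves are shown for the members that carry them, since they are the DNA through which HSF1 and the UPR factors are known to act. Windows from 250 bases before to 50 bases after each start site (RefSeq, GRCm38.p6) were matched to 71 of the 84 members. The 13 others had no window and were not searched: *Hsp90aa1*, *Hsp90ab1*, *Hspa8*, *Hspa9*, *Hsf1*, *Hyou1*, *Cct4*, *Bag4*, *Derl1*, *Dnajc2*, *Dnajc5*, *Dnajc11* and *Dnajc12*. Capitals mark the motif, each sequence is written 5′ to 3′ in the direction of its gene, and the position is that of the first capital counted from the start site. The heat shock element GAANNTTCNNGAA, on either strand, was found in 4 members, in 6.59% of the 91 member windows and in 0.603% of the 32851 windows of all genes.
Hspd1 (chr1:55088051-55088079, minus strand, position -139): gccttccgGAAGGTTCTAGAAcggaccgt
Hspe1 (chr1:55088056-55088084, plus strand, position -84): ccgttctaGAACCTTCCGGAAggccccgc
Hsph1 (chr5:149636280-149636308, minus strand, position 16): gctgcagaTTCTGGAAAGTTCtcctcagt
Dnajb6 (chr5:29735844-29735872, plus strand, position -46): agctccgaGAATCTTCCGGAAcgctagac
The ER stress response element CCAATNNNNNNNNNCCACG, on either strand, was found in 6 members, in 6.59% of the member windows and in 0.119% of all windows.
Hspa5 (chr2:34772017-34772051, plus strand, position -65): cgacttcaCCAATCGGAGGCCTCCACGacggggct
Hsp90b1 (chr10:86705525-86705559, minus strand, position -107): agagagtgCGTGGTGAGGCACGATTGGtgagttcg
Calr (chr8:84847067-84847101, minus strand, position -162): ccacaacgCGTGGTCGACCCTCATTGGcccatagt
Canx (chr11:50325792-50325826, minus strand, position -145): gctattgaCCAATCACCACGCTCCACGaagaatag
Dnajc3 (chr14:118937819-118937853, plus strand, position -105): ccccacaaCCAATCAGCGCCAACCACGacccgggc
Ero1lb (chr13:12565674-12565708, plus strand, position -201): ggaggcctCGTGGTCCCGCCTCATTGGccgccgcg
The related element ATTGGNCCACG was found in 1 member and in 0.0365% of all windows.
Herpud1 (chr8:94386369-94386395, plus strand, position -52): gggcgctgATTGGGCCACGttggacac
A match is a description of the letters and not a shown binding site.

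The genes with each element can be read beside their changes. *Hspd1* and *Hspe1*, which encode the mitochondrial chaperonin Hsp60 and its lid Hsp10, lie head to head on chromosome 1, *Hspd1* on the minus strand (55077835 to 55088243) and *Hspe1* on the plus strand (55088132 to 55091307), with 112 bases shared between the gene bodies. The windows of both genes hold the same pair of overlapping heat shock elements, of which one is shown for each gene, and the pair lies inside the *Hspd1* gene body and outside the shared bases. All 4 genes with the heat shock element rose, and their median log2 fold change was 0.70, with the rise of *Dnajb6* not called when libraries were scaled by their totals alone. Of the 6 with the ER stress response element 5 rose and 1, *Dnajc3*, fell, and the median over the 6 was 0.31 on that scale. Among all genes of the table, 47.1% were called higher, and 71.1% of those with a mean of 100 FPKM or more. A link between an element and the change of its gene was not tested. *Hsp90b1* held a further match at position -212. The UPR element TGACGTGG was found in 1 member, *Dnajc25*, and in 0.676% of all windows.

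Among the 84 members, 54 rose and 29 fell in *Hdac3* KO MCECs at an adjusted p below 0.01 (edgeR quasi-likelihood test). These are 64.3% and 34.5% of the members, where 47.1% and 49.6% of all genes of the table were called higher and lower. The median change, on the log2 scale here and below, was 0.26 over the members and 0.06 over all genes of the table. For 81 members (96.4%) the EV and *Hdac3* KO libraries did not overlap, which was so for 91.1% of all genes. Most changes were small, with 58 members within 0.5 of no change on the log2 scale and 4 past a log2 fold change of 1 in either direction. Scaling by library totals without TMM factors (the trimmed mean of M-values) gave 44 members higher and 29 lower, and moved the split over all genes from 3895 higher and 4107 lower to 2671 higher and 4120 lower, with a median over all genes of -0.06.

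**Figure D1:**
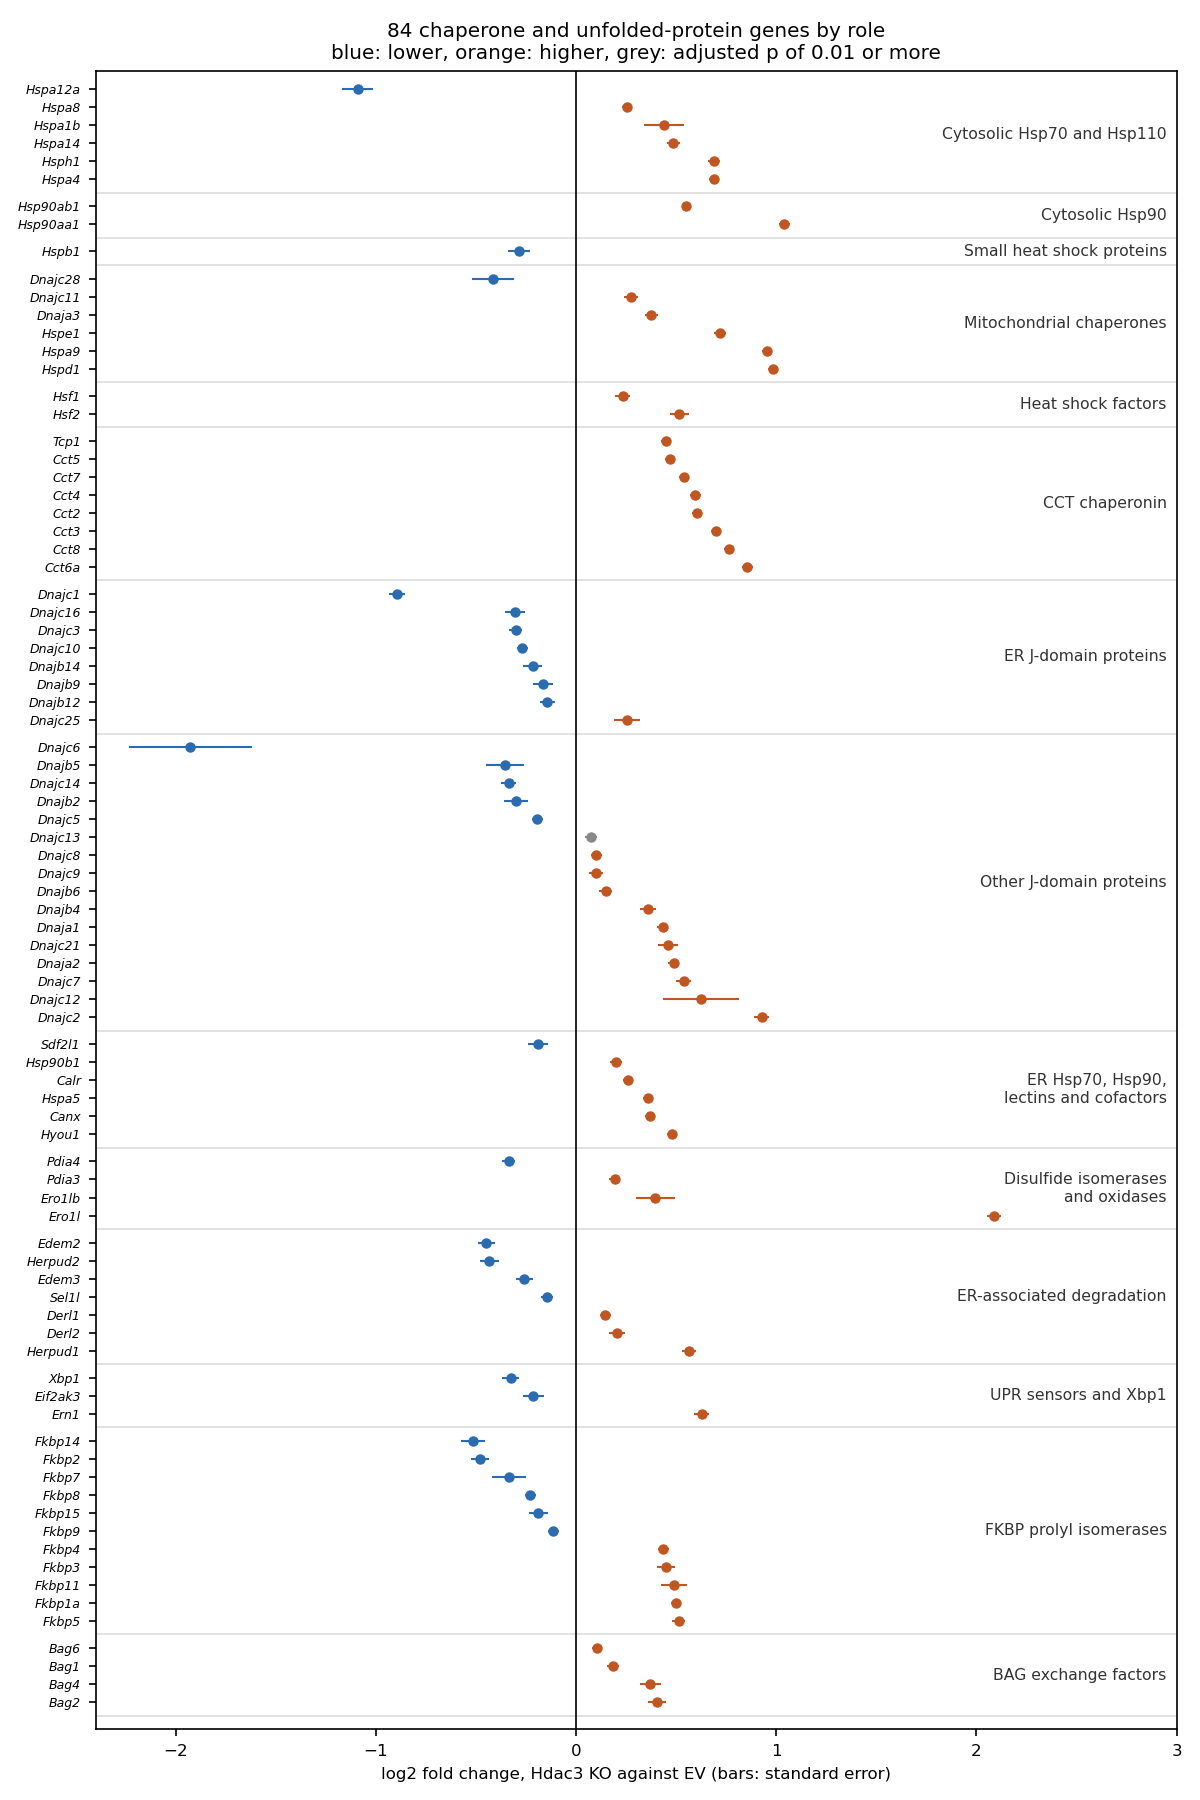
Log2 fold change of *Hdac3* KO against EV (horizontal axis) for the 84 members, grouped by role, with bars for the standard error (4 libraries a group) and colours for genes called higher, lower or not called. All 8 CCT subunits lie right of the line, 7 of the 8 *Dnaj* genes grouped here with the ER lie left of it, and *Ero1l* stands at 2.09.

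By mean level over all 8 libraries, a larger share of abundant than of scarce members rose. A rise itself raises that mean, so these shares are a description and not a test. In the EV libraries alone, the median level was 66.7 FPKM for members that rose and 19.8 FPKM for those that fell. Summed over the 84 members, the level was 8482 ± 64.5 FPKM in EV and 10930 ± 127 FPKM in *Hdac3* KO libraries (mean ± SD, n = 4), with EV libraries between 8417 and 8566 and *Hdac3* KO libraries between 10805 and 11053. Of the 26 members with a mean of 100 FPKM or more over the 8 libraries, 24 rose (92.3%). Of the 626 genes of the table at that level, 71.1% rose. *Hspa4* (98.7 FPKM in EV and 147 in *Hdac3* KO libraries) and *Dnaja2* (90.65 and 117.2) reached it only through the *Hdac3* KO libraries. *Fkbp2*, which fell, averaged 132.3 and 87.58 FPKM. With library totals *Bag1* and *Pdia3* were not called and *Bag6* and *Dnajc8* turned below 0, and the shares by level are given for the TMM scaling only. From 10 to under 100 FPKM, 25 of 43 members rose (58.1%, against 55.8% of all genes there), and under 10 FPKM, 5 of 15 (33.3%, against 33.2%). The share that rose grew with level in the whole table as well, and below 100 FPKM the members' share was close to that of all genes.

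**Figure D2:**
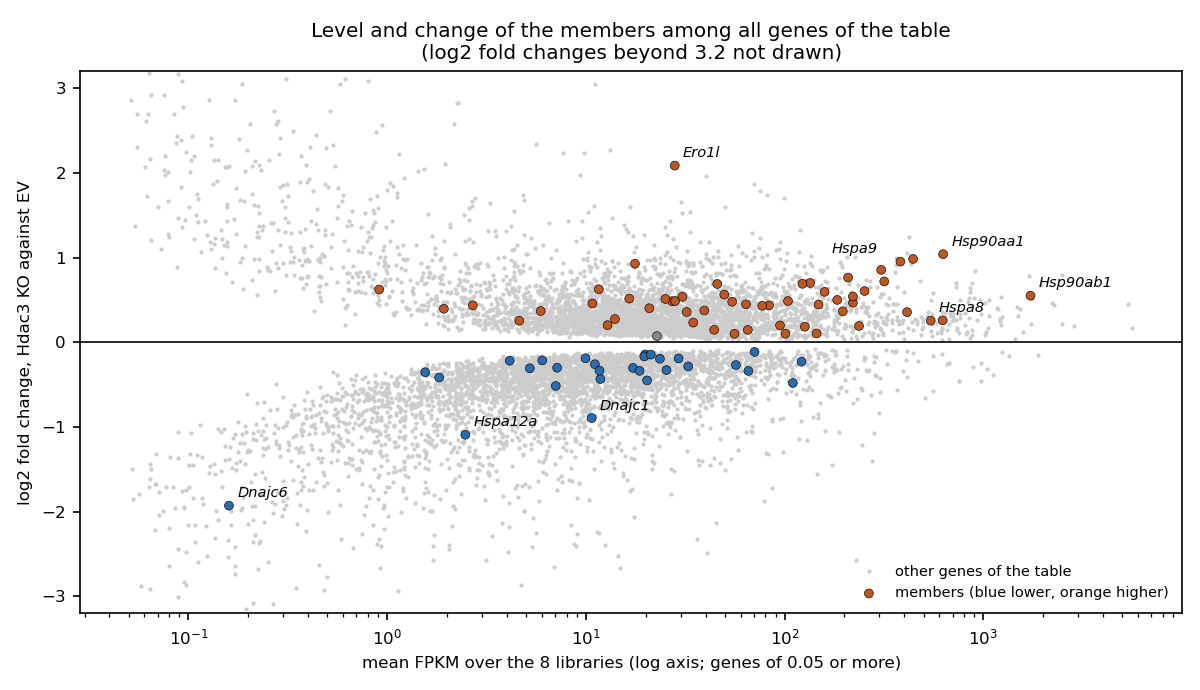
Mean FPKM over the 8 libraries (horizontal log axis) against the log2 fold change of *Hdac3* KO against EV, with members coloured by call over the other genes of the table in grey. The members above 100 FPKM lie mostly above the line, with 24 of 26 called higher, and *Hsp90ab1* is the most abundant.

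Cytosolic Hsp90, which completes the folding of kinases and steroid receptors, rose in both of its genes. *Hsp90aa1* measured 27505, 27292, 26181 and 25808 normalized counts in the EV libraries and 52286, 54131, 56061 and 57202 in the *Hdac3* KO libraries. This stress-inducible form rose 2.06-fold (log2 fold change 1.04 ± 0.03 SE, adjusted p = 4.8e-27), and no *Hdac3* KO library came near the EV range. *Hsp90ab1* had 68924, 68758, 69689 and 70972 normalized counts in EV and 101776, 101784, 101621 and 102561 in *Hdac3* KO libraries. The constitutive form, the most abundant member, rose less (log2 fold change 0.55 ± 0.02 SE, adjusted p = 2e-21). The FPKM ratio of *Hsp90aa1* to *Hsp90ab1*, which does not depend on library scaling, lay between 0.279 and 0.307 in the EV libraries and between 0.395 and 0.428 in the *Hdac3* KO libraries. Together the pair summed to 1902 ± 10.1 FPKM in EV and 2805 ± 32.8 FPKM in *Hdac3* KO libraries.

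Of the 6 cytosolic Hsp70 and Hsp110 members, 5 rose and 1 fell, with a median change of 0.46. *Hspa8*, the constitutive Hsc70 and the most abundant of them at 517 FPKM in EV libraries, rose the least of the 5 (log2 fold change 0.26 ± 0.03 SE, adjusted p = 1.9e-11). Normalized counts of *Hsph1* were 3322, 3379, 3225 and 3273 in EV and 5336, 5313, 5098 and 5521 in *Hdac3* KO libraries. *Hsph1*, which encodes Hsp110, an exchange factor for Hsp70, and whose window carries a heat shock element, rose with an adjusted p of 2.2e-21, and so did its relative *Hspa4* (log2 fold change 0.69 ± 0.03 SE, adjusted p = 5e-23). *Hspa14*, a ribosome-associated Hsp70, had a log2 fold change of 0.49. The inducible Hsp70 gene had the lowest level of those that rose. For *Hspa1b*, normalized counts came to 108, 137, 134 and 127 in EV libraries and to 161, 192, 168 and 164 in *Hdac3* KO libraries. All 4 *Hdac3* KO libraries were above the EV libraries (log2 fold change 0.44 ± 0.10 SE, adjusted p = 0.00015), at a level of 2.4 FPKM in EV and 3.0 FPKM in *Hdac3* KO libraries, and reads of its near-identical copy *Hspa1a*, which is not in the table, could have been assigned to it. In the EV libraries *Hspa12a* stood at 379, 395, 384 and 331 normalized counts, and in the *Hdac3* KO libraries at 179, 181, 168 and 169. *Hspa12a*, a distant Hsp70 relative, fell, and all *Hdac3* KO libraries lay far below the EV range (log2 fold change -1.09 ± 0.08 SE, adjusted p = 6.3e-15).

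*Hspb1*, which encodes Hsp27, is the only small heat shock member in the table, and it fell. *Cryab*, the alpha-B-crystallin gene, a small heat shock gene in the table but outside the rule, fell as well (log2 fold change -0.14). *Hspb1* measured 685, 643, 621 and 654 normalized counts in the EV libraries and 567, 486, 522 and 564 in the *Hdac3* KO libraries. The groups did not overlap (log2 fold change -0.28 ± 0.06 SE, adjusted p = 1.5e-05). Both heat shock factors among the members rose, while *Hsf4*, which is in the table but outside the rule, fell (log2 fold change -0.26). *Hsf1* had 1259, 1215, 1312 and 1259 normalized counts in EV and 1517, 1503, 1503 and 1412 in *Hdac3* KO libraries. *Hsf1*, whose product drives the heat shock genes, rose little (log2 fold change 0.23 ± 0.04 SE, adjusted p = 7.1e-07), and *Hsf2* more (log2 fold change 0.52 ± 0.05 SE, adjusted p = 1.1e-11). Of 14 genes on a list of HSF1 targets 10 are members in the table, and 9 of them rose and 1, *Hspb1*, fell, with a median change of 0.49.

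Mitochondrial chaperones fold proteins imported into the organelle, and 3 of them, *Hspd1*, *Hspa9* and *Hspe1*, were among the 10 highest named log2 fold changes of the members. Of the 6 members in the table, 5 rose and 1 fell, with a median change of 0.55, and their summed level went from 891 ± 11.9 FPKM to 1503 ± 26.8 FPKM. Normalized counts of *Hspd1* were 14451, 14521, 13907 and 14234 in EV and 27615, 27653, 28560.4 and 29219.9 in *Hdac3* KO libraries. *Hspd1* rose 1.98-fold (log2 fold change 0.98 ± 0.03 SE, adjusted p = 2.3e-27). For *Hspe1*, normalized counts came to 4605, 4361, 4521 and 4755 in EV libraries and to 7138, 7621, 7816 and 7468 in *Hdac3* KO libraries. Its partner *Hspe1* rose less (log2 fold change 0.72 ± 0.03 SE, adjusted p = 1.8e-21), and the FPKM ratio of *Hspd1* to *Hspe1* lay between 1.19 and 1.32 in EV and between 1.44 and 1.56 in *Hdac3* KO libraries. GENCODE M21 names 5 pseudogenes of *Hspd1* and 6 of *Hspe1*, whose reads could be split with the parent gene.

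*Hspa9*, which encodes mortalin, the Hsp70 of the mitochondrial matrix and of protein import, rose as well. In the EV libraries *Hspa9* stood at 15747, 15844, 15546 and 15794 normalized counts, and in the *Hdac3* KO libraries at 30314, 30153, 30839 and 30501. The *Hdac3* KO libraries lay within 30153 to 30839, far from the EV libraries (log2 fold change 0.95 ± 0.02 SE, adjusted p = 6e-28). *Dnaja3* (Tid1, a J-domain partner of mortalin) had a log2 fold change of 0.38 and *Dnajc11* of 0.28. The mitochondrial Hsp90 gene *Trap1*, the disaggregase gene *Clpb* and the exchange factor genes *Grpel1* and *Grpel2*, outside the rule, rose with log2 fold changes of 0.105, 0.13, 0.46 and 0.49, and with library totals *Trap1* turned below 0 and neither it nor *Clpb* was called. *Dnajc28* fell, at 126 to 157 normalized counts in EV and 96.6 to 113 in *Hdac3* KO libraries (log2 fold change -0.41 ± 0.11 SE, adjusted p = 0.0005).

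All 8 subunits of CCT rose, by log2 fold changes from 0.45 (*Tcp1*) to 0.86 (*Cct6a*), with a median of 0.60. CCT is built of stacked rings in which each ring holds every subunit. *Cct6a* measured 7071, 7042, 6738 and 6736 normalized counts in the EV libraries and 11974, 12125, 12786 and 13011 in the *Hdac3* KO libraries. *Cct8* had 7423, 7344, 7248 and 7227 normalized counts in EV and 12097, 12361, 12503 and 12721 in *Hdac3* KO libraries. Normalized counts of *Tcp1* were 8602, 8547, 8172 and 8423 in EV and 11174, 11421, 11548 and 11869 in *Hdac3* KO libraries. No subunit overlapped between the groups, and each was past the cut-off (log2 fold change 0.86 ± 0.03 SE, adjusted p = 2.9e-24 for *Cct6a*, log2 fold change 0.77 ± 0.03 SE, adjusted p = 2.3e-24 for *Cct8*, and log2 fold change 0.45 ± 0.03 SE, adjusted p = 2.7e-17 for *Tcp1*). Between those ends, the log2 fold changes were 0.70 for *Cct3*, 0.61 for *Cct2*, 0.60 for *Cct4*, 0.54 for *Cct7* and 0.47 for *Cct5*. The subunits summed to 1356 ± 13.7 FPKM in EV and 1943 ± 40.7 FPKM in *Hdac3* KO libraries. The highest mean FPKM among them was 2.13 times the lowest in EV and 2.37 times in *Hdac3* KO libraries, with *Cct6a* the highest and *Cct3* the lowest in both. Of the exons of *Tcp1*, 14.2% overlap a gene on the other strand, and of *Cct6a* 12.5%, and the strand setting of the counting is not given in the sources used here.

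**Figure D3:**
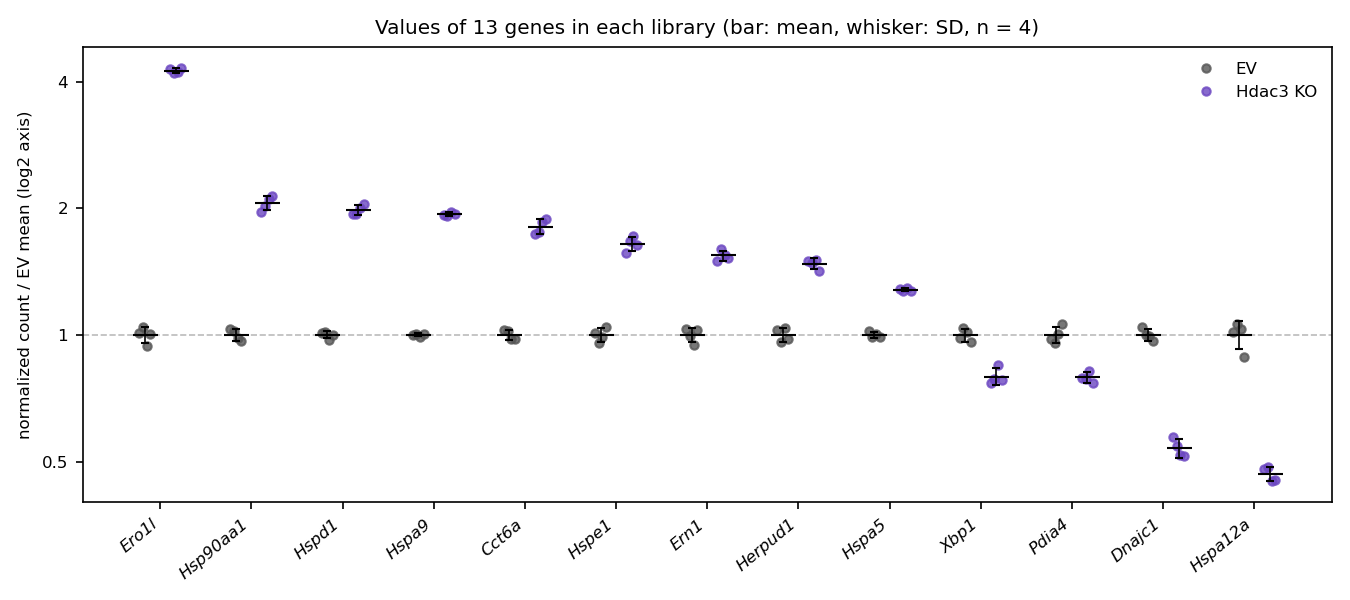
Normalized counts of 13 genes in each library, divided by the EV mean (vertical log2 axis), with EV in grey and *Hdac3* KO in purple, the bar at the mean and the whisker at the SD (n = 4). Each gene separates fully between the groups, from *Ero1l* at about 4 times the EV mean to *Hspa12a* under 0.5 times.

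The J-domain proteins, which choose clients for Hsp70, are described by compartment. Of the 8 *Dnaj* genes grouped here with the ER, 7 fell and 1 rose, with a median change of -0.24. Their summed level was 157 ± 4.0 FPKM in EV and 120 ± 1.64 FPKM in *Hdac3* KO libraries. For *Dnajc1*, normalized counts came to 1539, 1473, 1468 and 1429 in EV libraries and to 846, 805, 766 and 761 in *Hdac3* KO libraries. *Dnajc1*, a membrane J-domain protein that binds BiP and ribosomes, fell the most (log2 fold change -0.89 ± 0.04 SE, adjusted p = 3.8e-20). In the EV libraries *Dnajc3* stood at 1962, 1960.1, 1928 and 1861 normalized counts, and in the *Hdac3* KO libraries at 1562, 1569.8, 1545 and 1569. *Dnajc3* encodes p58IPK, a BiP partner and a UPR target, and fell, and its window holds the ER stress response element (log2 fold change -0.30 ± 0.03 SE, adjusted p = 3.1e-10). *Dnajc10* (ERdj5, a reductase of the degradation pathway) had a log2 fold change of -0.27, *Dnajc16* of -0.31, *Dnajb14* of -0.22 and *Dnajb12* of -0.14. *Dnajb9* measured 811, 733, 764 and 724 normalized counts in the EV libraries and 633, 709.9, 704 and 646 in the *Hdac3* KO libraries. *Dnajb9* (ERdj4, which represses IRE1) fell (log2 fold change -0.17 ± 0.05 SE, adjusted p = 0.00255), and its adjusted p was above 0.01 without EV library 1, *Hdac3* KO library 1 or *Hdac3* KO library 4. *Dnajc25* was the exception among these 8, with 317 to 371 normalized counts in EV and 370 to 422 in *Hdac3* KO libraries, groups that overlapped (log2 fold change 0.26 ± 0.07 SE, adjusted p = 0.00063), and its call was lost with library totals. *Sec63*, an ER J-domain gene whose symbol does not match the rule, rose (log2 fold change 0.12), a call lost with library totals, where its log2 fold change was -0.001.

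Of the 16 other J-domain genes 10 rose, 5 fell and 1, *Dnajc13* (log2 fold change 0.07, adjusted p = 0.0175 with edgeR), was not called, and with library totals 6 were called higher and 5 lower. *Dnajc2* had 905, 935, 882 and 900.2 normalized counts in EV and 1693, 1783, 1644 and 1770.1 in *Hdac3* KO libraries. *Dnajc2*, the J-domain partner of the ribosome-associated complex that meets chains as they leave the ribosome, rose the most of the 16 (log2 fold change 0.93 ± 0.04 SE, adjusted p = 1.8e-21). *Dnaja1* and *Dnaja2*, the main cytosolic partners of Hsc70, had log2 fold changes of 0.43 and 0.49, *Dnajc7* of 0.54, *Dnajc21* of 0.46 and *Dnajb4* of 0.36. Normalized counts of *Dnajc6* were 27.3, 27.8, 21.9 and 26.6 in EV and 4.21, 10.98, 4.71 and 6.56 in *Hdac3* KO libraries. *Dnajc6*, which encodes auxilin and uncoats clathrin vesicles, had the lowest log2 fold change of the 84 members (log2 fold change -1.93 ± 0.31 SE, adjusted p = 7.3e-07), on counts under 30. *Dnajc12* had 26.6 to 50.2 normalized counts in EV and 48.5 to 67.3 in *Hdac3* KO libraries, which overlapped, and a log2 fold change of 0.62 that was called (adjusted p = 0.00246 with edgeR) but not without EV library 1, EV library 4 or *Hdac3* KO library 1, nor with library totals. *Dnajc9*, a histone chaperone, had a log2 fold change of 0.10 that was not called without EV library 2, EV library 4 or *Hdac3* KO library 2. *Dnajc8* was at 0.10, and with library totals both it and *Dnajc9* turned below 0. The 4 others that fell were *Dnajb5*, *Dnajc14*, *Dnajb2* and *Dnajc5*, with log2 fold changes from -0.35 to -0.19.

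The abundant ER chaperones rose modestly. Of the 6 ER Hsp70, Hsp90, lectin and cofactor members in the table, 5 rose and 1 fell, with a median change of 0.31 and a sum of 1324 ± 19.0 FPKM in EV and 1500 ± 21.7 FPKM in *Hdac3* KO libraries. For *Hspa5*, normalized counts came to 18952, 18336, 18701 and 18392 in EV libraries and to 23861, 23610.5, 24051 and 23709.9 in *Hdac3* KO libraries. *Hspa5* rose 1.28-fold (log2 fold change 0.36 ± 0.02 SE, adjusted p = 9.5e-16), and the groups were well apart. In the EV libraries *Hyou1* stood at 4323, 4502, 4346 and 4474 normalized counts, and in the *Hdac3* KO libraries at 6242, 6242, 6116 and 6002. *Hyou1*, which encodes Grp170, the exchange factor of BiP, rose the most of the 6 (log2 fold change 0.48 ± 0.03 SE, adjusted p = 8.4e-18). *Canx* and *Calr*, the lectins that hold glycoproteins while they fold, had log2 fold changes of 0.37 and 0.26. *Hsp90b1* rose less (log2 fold change 0.20 ± 0.03 SE, adjusted p = 8.5e-08), and 10.3% of its exons overlap a gene on the other strand. *Sdf2l1* measured 665, 649.7, 672 and 709 normalized counts in the EV libraries and 558, 626, 572 and 608 in the *Hdac3* KO libraries. *Sdf2l1*, a BiP cofactor, fell (log2 fold change -0.19 ± 0.05 SE, adjusted p = 0.00085), and so did *Sil1*, a BiP exchange factor gene outside the rule (log2 fold change -0.48). The FPKM ratio of *Hspa5* to its partner *Dnajc3* was 18.6 to 19.6 in EV and 29.9 to 30.9 in *Hdac3* KO libraries.

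The largest rise among the members was in an ER oxidase gene. *Ero1l* had 955, 987, 888 and 948 normalized counts in EV and 4039, 3962, 3972 and 4076 in *Hdac3* KO libraries. *Ero1l* encodes ERO1-alpha, which passes oxidising equivalents to the disulfide isomerases, and rose 4.25-fold (log2 fold change 2.09 ± 0.03 SE, adjusted p = 3.6e-33; chr14:45283092-45318572, minus strand). Normalized counts of *Ero1lb* were 123, 133, 145 and 152 in EV and 172, 169, 204 and 188 in *Hdac3* KO libraries. Its paralog *Ero1lb*, at 1.74 FPKM in EV libraries against 11.4 FPKM for *Ero1l*, rose 1.32-fold (log2 fold change 0.40 ± 0.10 SE, adjusted p = 0.00033). The ratio of *Ero1l* to *Ero1lb* FPKM was 5.87 to 7.43 in EV and 18.7 to 22.6 in *Hdac3* KO libraries. The 2 *Pdia* genes in the table, whose products form and shuffle disulfide bonds, went opposite ways, and *P4hb* and *Tmx1*, disulfide isomerase genes outside the name rule, rose (log2 fold changes 0.36 and 0.21), the call of *Tmx1* being lost with library totals. *Erp29* and *Txndc12*, of the same protein family and outside the rule, fell (log2 fold changes -0.21 and -0.16). For *Pdia3*, normalized counts came to 12461, 11927, 12086 and 11522 in EV libraries and to 13220.2, 13635, 14123 and 13859 in *Hdac3* KO libraries. *Pdia3* (ERp57, the partner of calnexin) rose (log2 fold change 0.19 ± 0.03 SE, adjusted p = 5.8e-08), and was not called with library totals. In the EV libraries *Pdia4* stood at 3459, 3381, 3563 and 3746 normalized counts, and in the *Hdac3* KO libraries at 2802, 2782, 2909 and 2721. *Pdia4* (ERp72) fell (log2 fold change -0.34 ± 0.03 SE, adjusted p = 1e-11).

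In ER-associated degradation 4 of 7 listed members fell and 3 rose, with a median change of -0.15 and sums of 193 ± 2.86 FPKM in EV and 191 ± 2.72 FPKM in *Hdac3* KO libraries, which overlapped. *Herpud1* measured 1584, 1483, 1601 and 1506 normalized counts in the EV libraries and 2316, 2289, 2329 and 2185 in the *Hdac3* KO libraries. *Herpud1*, which organises the ubiquitin ligase complex and is raised by ER stress, rose (log2 fold change 0.56 ± 0.03 SE, adjusted p = 1e-16), and its window carries the element ATTGGNCCACG. *Herpud2* had 754, 716, 728 and 703 normalized counts in EV and 518, 544, 527 and 555 in *Hdac3* KO libraries. Its paralog *Herpud2* fell (log2 fold change -0.43 ± 0.05 SE, adjusted p = 7e-10), and the FPKM ratio of *Herpud1* to *Herpud2* was 2.91 to 3.09 in EV and 5.54 to 6.29 in *Hdac3* KO libraries. *Edem2* and *Edem3*, which trim mannose from doomed glycoproteins, had log2 fold changes of -0.45 and -0.26. *Sel1l*, the adaptor of the HRD1 ligase, was at -0.15. *Derl1* and *Derl2*, channel components, were at 0.15 and 0.20 and were not called with library totals.

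The sensors of the UPR did not move together. Normalized counts of *Ern1* were 1292, 1242, 1185 and 1286 in EV and 1878, 2002, 1939.6 and 1909.8 in *Hdac3* KO libraries. *Ern1* rose (log2 fold change 0.63 ± 0.04 SE, adjusted p = 2.1e-17). For *Xbp1*, normalized counts came to 1151, 1221, 1195 and 1128 in EV libraries and to 902, 921, 997 and 919 in *Hdac3* KO libraries. *Xbp1*, whose messenger RNA IRE1 splices, fell (log2 fold change -0.33 ± 0.04 SE, adjusted p = 1e-08), and gene counts do not separate the spliced from the unspliced form. In the EV libraries *Eif2ak3* stood at 564, 551, 594 and 569 normalized counts, and in the *Hdac3* KO libraries at 521, 503, 466 and 478. *Eif2ak3* fell (log2 fold change -0.21 ± 0.05 SE, adjusted p = 0.00047). The FPKM ratio of *Ern1* to *Xbp1* was 0.304 to 0.349 in EV and 0.596 to 0.666 in *Hdac3* KO libraries. Of 24 genes on a list of XBP1 and ATF6 targets 16 are members in the table, and 9 rose and 7 fell, with a median change of 0.17. With library totals 6 of them were called higher and 7 lower, with a median of 0.05. Those that fell were *Pdia4*, *Xbp1*, *Dnajc3*, *Dnajc10*, *Sdf2l1*, *Dnajb9* and *Sel1l*.

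The FKBP prolyl isomerases, which turn proline bonds and bind the drug FK506, split into 5 that rose and 6 that fell, with a median change of -0.11. *Fkbp5* measured 1515, 1616, 1554 and 1599 normalized counts in the EV libraries and 2332, 2198, 2262 and 2179 in the *Hdac3* KO libraries. *Fkbp5* (FKBP51, an Hsp90 co-chaperone) was the highest of those that rose (log2 fold change 0.51 ± 0.03 SE, adjusted p = 8.9e-16), with *Fkbp4* (FKBP52, its counterpart at Hsp90) at 0.44, *Fkbp1a* (FKBP12) at 0.50, *Fkbp11* at 0.49 and *Fkbp3* at 0.45. *Fkbp14* had 536, 479, 458 and 507 normalized counts in EV and 355, 355, 329 and 347 in *Hdac3* KO libraries. *Fkbp14*, an ER isomerase that acts on collagen, fell the most (log2 fold change -0.52 ± 0.06 SE, adjusted p = 2.6e-09), and *Fkbp2* (log2 fold change -0.48 ± 0.05 SE, adjusted p = 1.5e-11), also of the ER, was close to it. *Fkbp7*, *Fkbp8*, *Fkbp15* and *Fkbp9* had log2 fold changes of -0.33, -0.23, -0.19 and -0.11. All 4 listed BAG genes, exchange factors and regulators of Hsp70, rose, with log2 fold changes of 0.40 for *Bag2*, 0.37 for *Bag4*, 0.19 for *Bag1* and 0.11 for *Bag6*. With library totals *Bag1* was not called and *Bag6* turned below 0.

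Genes of the same pathways outside the name rule were taken from lists chosen for this comparison. Of 29 genes on a mixed list of co-chaperones and other folding factors 23 are in the table, and 19 rose and 4 fell, with a median change of 0.25. Beside cytosolic co-chaperones and prefoldin subunits, the list holds *Hsf4* and *Cryab*, both among the 4 that fell, and mitochondrial proteins such as *Trap1*, *Clpb*, *Grpel1* and *Grpel2*, which rose. *Stip1* (Hop, which links Hsp70 to Hsp90), *Ptges3* (p23, which closes Hsp90) and *Tomm70a* (the mitochondrial receptor for Hsp90 clients) had log2 fold changes of 0.65, 0.64 and 0.63, while *Stub1* (CHIP, the ubiquitin ligase of Hsp70 clients) had -0.45. Of 26 listed ER folding and translocation genes of 43, 14 rose and 10 fell, with a median of 0.13, from *Creld1* at -0.55 to *Ssr1* at 0.51. Of 18 listed degradation genes of 26, 10 rose and 7 fell, with a median of 0.15, from *Os9*, a lectin that reads mannose on misfolded proteins, at -0.76 to *Rad23b*, a proteasome shuttle, at 0.68.

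Of 26 listed genes of UPR and integrated stress signalling of 27, 18 rose and 8 fell, with a median change of 0.26. *Trib3* rose by a log2 fold change of 1.97, *Sesn2* of 1.26, *Ddit3* (CHOP) of 1.23, *Atf3* of 1.23, *Chac1* of 1.01 and *Atf4* itself of 1.002, and *Asns* and *Ppp1r15a* were at 0.91 and 0.96, while *Nupr1* was at 0.34 and *Atf5* at 0.09, the last not called with library totals and then at -0.025. *Atf6* was at 0.25 and its relative *Atf6b* at -0.16. *Crebrf*, a regulator of the UPR, fell the most at -0.90. The others called lower were *Map3k5* (-0.64), *Eif2ak2* (-0.55), *Creb3l2* (-0.54), *Eif2ak4* (-0.355), *Mbtps1* (-0.35) and *Creb3l1* (-0.22). With library totals, the genes called higher and lower were 12 and 4 of the mixed list, 10 and 10 of the ER folding genes, 6 and 7 of the degradation genes and 14 and 8 of the signalling genes, and the medians of the lists were 0.13, 0.02, 0.03 and 0.15. These lists share no gene with the members, and the shifts were not compared by a test.

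**Figure D4:**
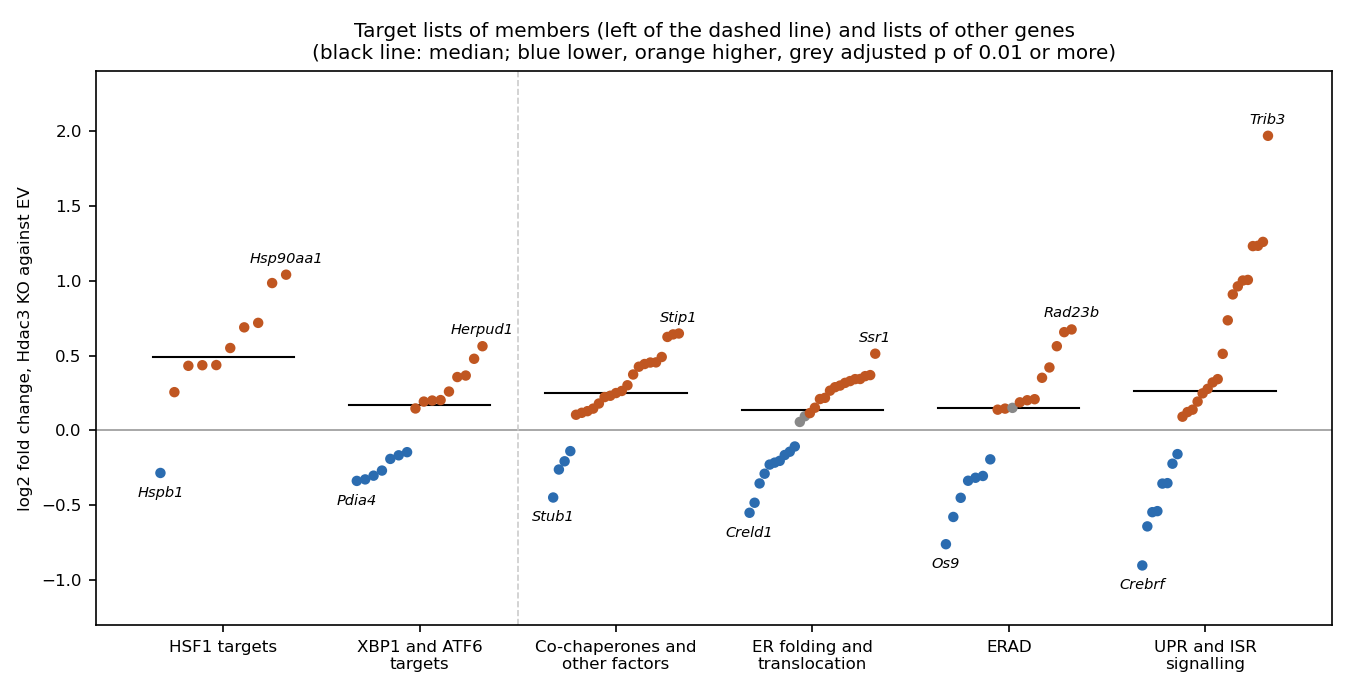
Log2 fold change of *Hdac3* KO against EV (vertical axis) for the HSF1 and the XBP1 and ATF6 target lists of members, left of the dashed line, and 4 lists of genes outside the name rule, with a black line at each median. The HSF1 list lies above 0 but for *Hspb1*, and the XBP1 and ATF6 list lies on both sides, with 9 genes higher and 7 lower.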

How the data were processed

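Bulk RNA-Seq of 4 EV and 4 *Hdac3* KO MCEC libraries was analysed, with groups taken from the sample titles. The authors used tophat2 and bowtie2 for alignment to mm10, and the submitters' processing notes name CASAVA and DESeq 1.6.3. The methods name the cufflinks suite for differential expression, and lumi and DESeq2 for the count matrix and its statistics. Which program assigned reads to genes, and with which annotation, is not given in the sources used here. Per the file headers, the deposited values include read counts for each gene, which are whole numbers. The deposited FPKM divide each count by gene length and library total. The deposited group means of normalized counts are a signal scaled by the authors with a size factor per library. The authors' fold changes and p-values were not used. All 8278 listed genes had passed the authors' own test.

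Library totals were recovered from count, length and FPKM, and multiplied by TMM factors. TMM takes most genes as unchanged, which cannot be checked in a table that holds only genes called different. The quasi-likelihood test of edgeR 4.0.16 (R 4.3.3, limma 3.58.1) was run on all genes without a filter on low counts. P-values were adjusted by Benjamini and Hochberg over all 8278 genes, with a cut-off of 0.01. These genes had been selected on the same libraries, so most pass again, and the adjusted p-values do not allow for that selection. Of the reads, 84.3% to 85.9% lay in listed genes, and the common biological coefficient of variation was 2.82%. With 4 libraries a group, the smallest p of a two-sided exact permutation test is 0.0286. On simulated counts for the same comparison edgeR recovered 99 of 100 genes changed by 0.5 on the log2 scale and 100 of 100 changed by 1, with 3 false calls over the 8278 genes. Only these genes were changed, equally up and down, and each averaged 100 counts or more. The common coefficient of variation was used for every gene, and the library sizes were known. Far more genes were called in the real libraries, so these rates need not hold there. Normalized counts have the relative library size divided out, and levels are compared between genes only as FPKM.

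Named genes were the hallmark members, the 10 lowest and the 10 highest log2 fold changes among called members with groups that did not overlap whose higher group averaged 100 normalized counts or more, and the extremes of each role; others are named to complete a group. Members and lists were chosen with earlier results of these data known. DESeq2 1.42.0, other scalings, cut-offs, a filter, a replicate block and leaving out each library were tried. Sequences came from RefSeq windows, read with Python 3.11.15, and 13 members had none.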

Additional observations from a re-analysis of the deposited data

Results flagged for a closer look

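In each group of 4 libraries, the gap between the farthest library and its nearest neighbour was divided by the range and set against Dixon's critical value at the 5% level, for the normalized counts of the 84 members in both groups. Of 168 groups 4 passed it, where chance alone would pass about 8.4. *Fkbp7* stood apart in EV library 3, at 197.0 normalized counts, with the other EV libraries between 224.0 and 227.0. *Dnajc25* stood apart in EV library 2, at 371.0, with the rest between 317.0 and 323.0, and this library brought the overlap of its groups. *Hsf1* was lowest in *Hdac3* KO library 4, at 1412, with the rest between 1503 and 1517. *Dnajc28* was also lowest in that library, at 96.6, with the rest between 111.0 and 113.0. The calls of these 4 genes were kept without any one library.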

How the results depend on the processing

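The count of members called lower stayed at 29 with DESeq2, with each other scaling, with a low-count filter, with adjustment as if 30000 genes had been tested and at an adjusted p of 0.05, and the count called higher was between 53 and 55 there, except with library totals, where it was 44. A log2 fold change over 0.5 in either direction was passed by 4 lower and 22 higher members. With library totals the median of the members was 0.14, and *Dnajc9* (-0.017), *Bag6* (-0.012), *Dnajc13* (-0.044) and *Dnajc8* (-0.017) reversed, while *Derl1*, *Derl2*, *Pdia3*, *Bag1*, *Dnajb6*, *Dnajc12* and *Dnajc25* lost their call; the median of all genes moved there from 0.06 to -0.06. Leaving out each library gave 28 to 29 members lower, 52 to 55 higher and medians of 0.26 to 0.28. Same-numbered libraries did not deviate together (mean correlation -0.008, range -0.050 to 0.050, over 7797 genes), and a fit with the replicate block gave 29 lower and 54 higher with no call changed. *Dnajc13* was called at 0.09 with DESeq2. Genes outside the table could not be seen at any setting, and genes of few reads, such as *Dnajc6*, have the widest errors. Every member had passed the authors' test on these libraries, so the steady counts are no independent support for the calls.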
